A study of Mus musculus with 8 samples.

Results

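Permanent middle cerebral artery occlusion (PMCAO), in which a filament left in place stops the flow of the artery that supplies most of the striatum and lateral cortex, was compared with a sham operation in mice that had all received the neuropeptide PACAP38, at 6 h after the operation. The values are the PACAP38 channels of the 4 two-colour microarrays of 6 h, out of 8 arrays in the series: the Cy5 channel of the array labelled Pooled 1 and the Cy3 channel of the array labelled Pooled 2, for each of sham and PMCAO. All mice were C57BL/6J males of 8 to 12 weeks, and both groups were given 1 pmol of PACAP38 in 1 µl into the cerebral ventricle at the time of the operation. The occluded mice were chosen from those with a neurological grade of 1 or 2, so the most and the least affected mice were left out. RNA came from the whole right (ipsilateral, ischemic) hemisphere without olfactory bulb and cerebellum, so the infarct core, the penumbra around it and unaffected tissue were measured together. In such tissue, fewer cells of a type and less RNA per cell cannot be told apart.

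Each group was a single pool of 3 mice, and its 2 arrays held that pool's RNA with the dyes exchanged. There was therefore 1 biological sample per group, the spread between mice was not measured, and no test was possible within the comparison at 6 h. Values are given instead for each dye, as the ratio of PMCAO to sham within that dye, and a gene is described as above or below the threshold only where both dyes passed it, at more than 1.5-fold or less than 0.75-fold. These folds were taken after an offset of 50 was added to every signal, which understates the change of dim genes. Since PACAP38 was given to both groups, the ratios describe the occlusion in treated animals and not the action of the peptide.

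When a cerebral artery is blocked, cells around the core depolarize repeatedly, and within hours neurons and glia switch on immediate early transcription factors, chaperones and inflammatory mediators. Chemokines released by microglia and vessel cells draw neutrophils and monocytes from the blood, and extracellular proteases and their inhibitors act on the matrix and the vessel wall. PACAP38 signals through receptors coupled to adenylate cyclase, of which PAC1 (Adcyap1r1) is abundant in brain.

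One of the 4 arrays stood apart. The mean log2 signal of the sham Pooled 2 array correlated with that of the other arrays at r = 0.918 to 0.931 across 36131 probes, whereas the other arrays correlated with each other at r = 0.989 to 0.997. On its PACAP38 (Cy3) channel 9.23% of spots carried an outlier flag, against 0.187% to 2.96% on the other PACAP38 channels of 6 h. The Cy3 ratios all rest on this array, and the Cy5 ratios do not use it. Among the probes kept, the Cy3 and Cy5 ratios correlated at r = 0.241 across probes, and the SD of their halved difference was 0.33 on the log2 scale, against 0.404 for their mean. At 24 h, on another slide and from other mice, the correlation was 0.562 and the SDs were 0.15 and 0.282. For this reason both dyes' values are printed, and those of Cy5 stand for the result without that array.

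Of 41174 probes on the array, 36956 carried no outlier flag on the 4 channels, and 23927 of these were well above background in both dyes in at least 1 group and were kept. They stood for 13783 genes with a symbol, each represented below by its brightest kept probe. By the mean of the dyes, 1630 probes (6.81%) were above and 2719 (11.4%) below the threshold, but the halved difference of the dyes, in which a change shared by both dyes cancels, passed the same limits at 3036 probes. On each dye, 476 probes (1.99%) were above and 611 (2.55%) below, and at 298 probes the dyes passed the threshold in opposite directions. On Cy5 alone 1170 probes (4.89%) were above and 1720 (7.19%) below, and on Cy3 alone 3306 (13.8%) and 4444 (18.6%). Counted as genes, 297 (2.15%) were above and 433 (3.14%) below the threshold on each dye, and these shares are the background against which the gene lists are read. With Cy5 alone, 4.86% of the genes were above and 8.26% below, and with Cy3 alone 17.2% and 21.0%.

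**Figure D1:**
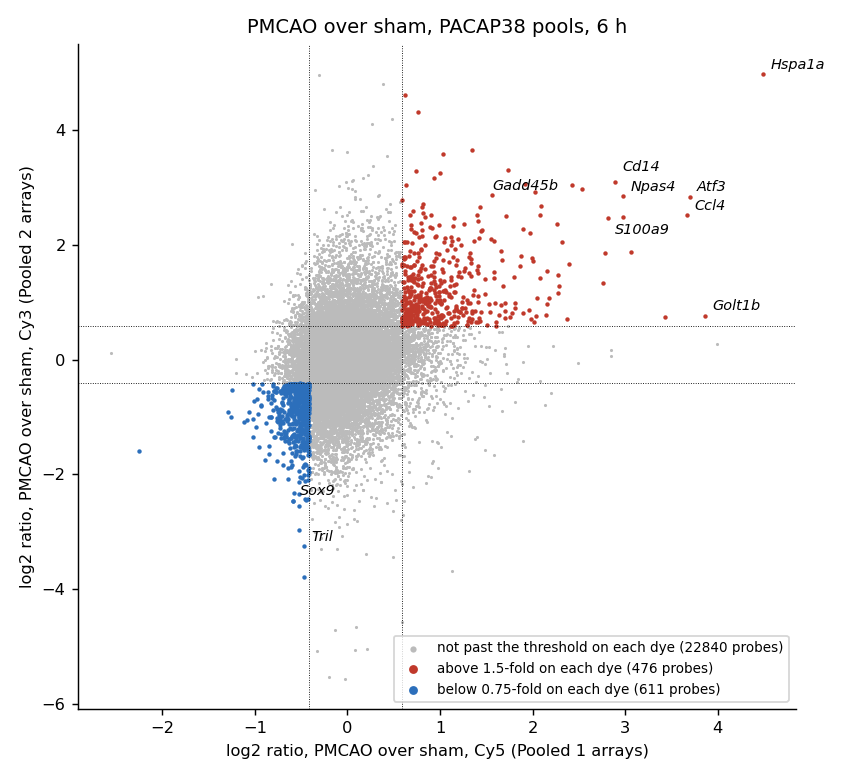
Each point is 1 of the 23927 kept probes, placed by its log2 ratio of PMCAO to sham on Cy5 (x axis) and on Cy3 (y axis), with dotted lines at 1.5-fold and 0.75-fold. Red points (476) are above and blue points (611) below the threshold on each dye, and the vertical spread, which rests on the sham Pooled 2 array, is wider than the horizontal one.

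Hspa1a, which encodes the inducible heat shock protein 70, had the largest ratio of all, and it was followed by the transcription factor Atf3, the chemokine Ccl4, the lipopolysaccharide co-receptor Cd14 and the activity-dependent neuronal transcription factor Npas4. Hspa1a read 413 in sham and 9289 in PMCAO on Cy5, and 102 and 3202 on Cy3, that is 22.5-fold and 31.5-fold. Its probe may also take up RNA of Hspa1b, a nearly identical copy, and a dimmer probe gave 5.56-fold by the mean of the dyes. Atf3 went from 118 to 1527 on Cy5 (12.96-fold) and from 77.2 to 554 on Cy3 (7.18-fold). Npas4 had signals of 420 in sham and 3309 in PMCAO on Cy5 and of 177 and 1283 on Cy3, a ratio of 7.87 and 7.24. For Hspa1a, Atf3 and Npas4, each PMCAO channel lay above both sham channels.

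Cd14 was at 280 and 2075 on Cy5 and at 94.9 and 813 on Cy3 (7.42-fold and 8.57-fold). The stress-induced Gadd45b read 385 and 2067 on Cy5 and 95.5 and 791 on Cy3 (5.37-fold and 8.28-fold), and its relative Gadd45g, a brighter gene, read 6210 and 26363 on Cy5 and 1488 and 9486 on Cy3 (4.25-fold and 6.38-fold). Inhba, which encodes the activin A subunit, and Nptx2, a secreted pentraxin that clusters glutamate receptors, are both made by active neurons. Their mean ratios were 5.57 and 4.98. The 20 highest genes further held Depp1 at 6.64-fold, the matrix protein Ccn1 at 4.27-fold, the calprotectin subunit S100a9 at 6.26-fold and the small heat shock protein Hspb1 at 4.54-fold.

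For several of these 20 genes the values depended on the dye or the probe. Arl4d was 2.55-fold on Cy5 and 12.6-fold on Cy3, Sprr2a1 2.05-fold and 12.0-fold, and Smarca4 2.01-fold and 9.58-fold, so their place among the highest rests on the array that stood apart. Golt1b, which acts in Golgi transport, showed the reverse, with 14.5-fold on Cy5 and 1.70-fold on Cy3. Other probes of Arl4d, Golt1b, Smarca4 and Srsf11 gave mean ratios of 1.41, 0.89, 0.869 to 1.11 and 0.763. Timp1 (2.96-fold and 7.29-fold) was above 1.5-fold by the mean in its other probes too, at 1.92 and 2.10.

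**Figure D2:**
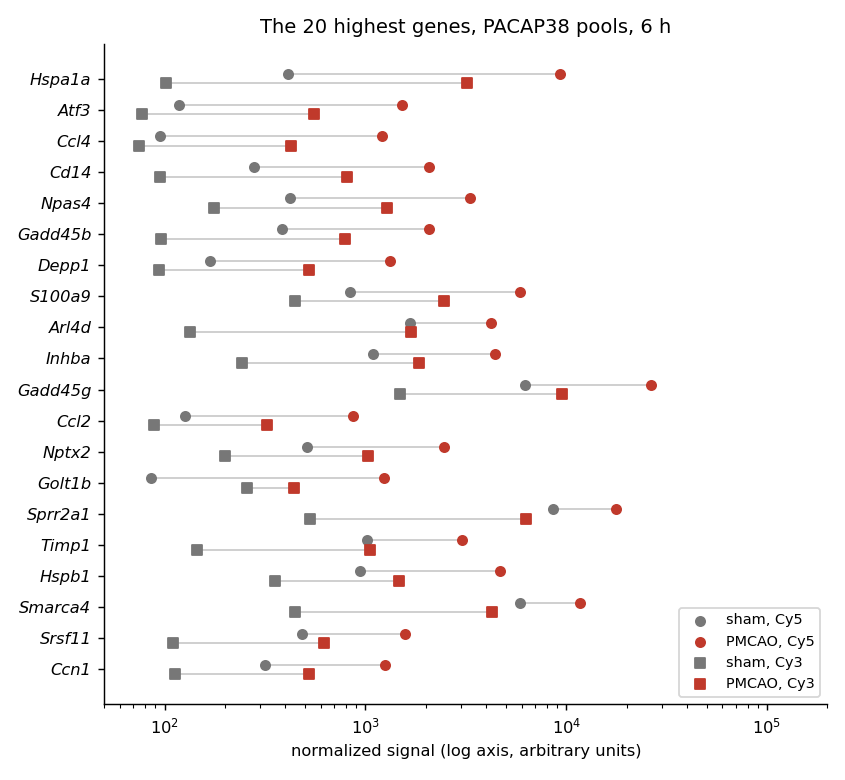
Normalized signals of the 20 genes with the highest mean ratio on each dye, in the sham (grey) and PMCAO (red) pools, on Cy5 (circles) and Cy3 (squares), 1 pool of 3 mice per group, on a logarithmic axis. The lines join the values whose ratio was taken, the longest of which are those of Hspa1a at 22.5-fold and 31.5-fold.

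Immediate early genes, which are transcribed within minutes of a stimulus without new protein, formed the list with the largest share above the threshold. Of 28 kept members, 16 were above 1.5-fold on each dye and 0 were below 0.75-fold, against 2.15% and 3.14% of all genes. The median log2 ratio of the list was 0.74, with 0.81 on Cy5 and 0.77 on Cy3, whereas that of all genes was -0.008. Among the AP-1 factors, Fos was 4.84-fold on Cy5 and 2.23-fold on Cy3, Fosb 3.73-fold and 4.84-fold, Fosl2 1.74-fold and 1.60-fold, and Jun 1.78-fold and 1.57-fold. Fosl1, a later member of the family, was at 1.22-fold and 0.971-fold. Jund was at 1.25-fold and 1.51-fold, so that 4 of the 6 kept members of the Fos and Jun families passed the threshold on each dye.

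The bright members of this list were mostly lost to outlier flags on Cy3. Egr1, Arc, Junb, Nr4a1, Nr4a2, Egr4, Ier5 and Dusp6 had no probe free of flags, and only their Cy5 ratios can be given. Those were 1.20 for Egr1, 1.56 for Arc, 1.63 for Junb, 1.44 for Nr4a1, 1.56 for Nr4a2, 1.96 for Egr4, 1.37 for Ier5 and 1.48 for Dusp6, all above 1. Arc, for example, had a Cy5 signal of 9609 in sham and 14978 in PMCAO. Nr4a3 was not well above background. Egr2 and Egr3 were kept, at mean ratios of 0.936 and 1.08. Ier2, Ier3, Btg2, Klf4, Klf6, Maff and Rgs2 passed the threshold on each dye, at mean ratios of 1.57 (Rgs2) to 2.67 (Maff).

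**Figure D3:**
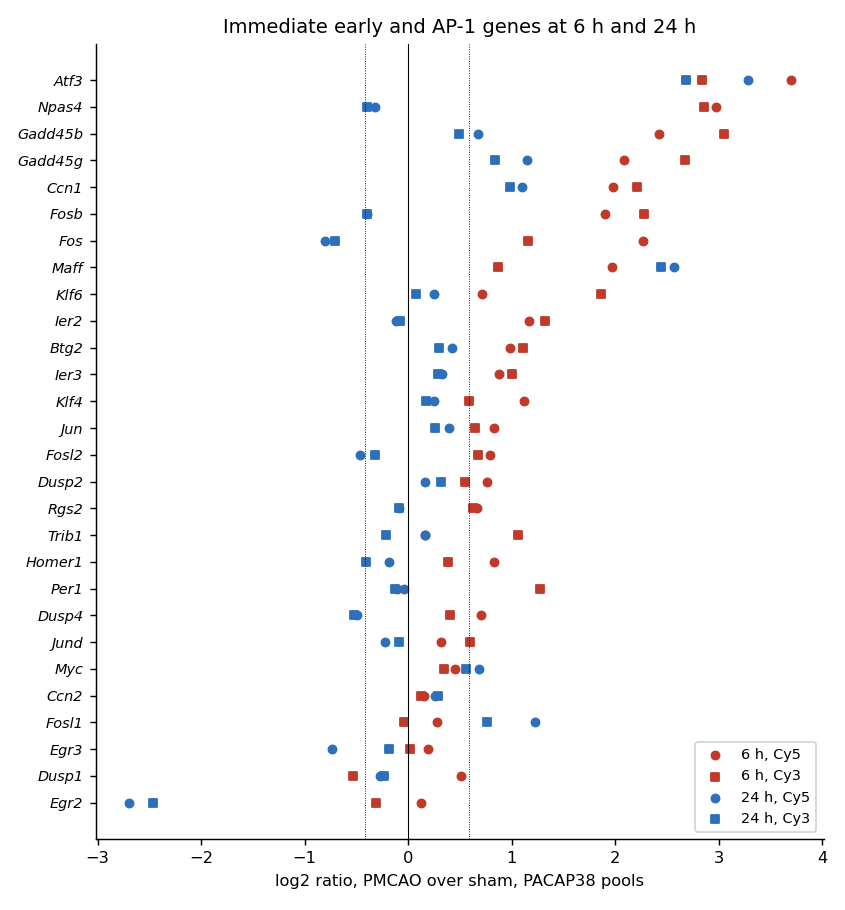
Log2 ratios of PMCAO to sham in the PACAP38 pools for the 28 kept immediate early and AP-1 genes, at 6 h (red) and 24 h (blue), on Cy5 (circles) and Cy3 (squares), with dotted lines at 1.5-fold and 0.75-fold. Atf3 and Maff are to the right at both times, whereas Npas4, Fosb and Fos lie to the right at 6 h and left of 0 at 24 h.

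The same genes were read at 24 h in pools of other mice, measured on another slide, where 1.85% of all genes were above and 2.0% below the threshold on each dye. There, 5 of the 28 were above and 3 below, and the median log2 ratio was 0.07. Atf3 stayed at a log2 ratio of 2.98 and Maff at 2.51. Npas4 was at -0.36 and Fosb at -0.40, neither past the threshold on both dyes, and Fos was below it at -0.75. Egr2, close to 0 at 6 h, was at -2.58. The difference between times could not be tested, since each time had 1 pool per group.

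Heat shock genes encode chaperones that hold or refold damaged proteins. Of 26 kept members, 4 were above the threshold on each dye and 0 below. Besides Hspa1a and Hspb1 these were the co-chaperone Dnajb1, with signals of 973 and 2233 on Cy5 and of 232 and 994 on Cy3 (2.29-fold and 4.29-fold), and Hsph1, an Hsp70 exchange factor, with 14507 and 27148 on Cy5 and 5683 and 8539 on Cy3 (1.87-fold and 1.5-fold). Bag3, a partner of Hsp70, was at 2.67-fold and 1.40-fold, below the threshold on Cy3. Among the chaperones of mitochondria, Hspd1 was at 1.25-fold and 1.39-fold, its partner Hspe1 at 1.77-fold and 0.970-fold, and Hspa9 at 0.907-fold and 1.81-fold. Of the cytosolic Hsp90 genes, Hsp90aa1 was at 1.59-fold and 0.732-fold and Hsp90ab1 at 0.812-fold and 1.55-fold. The constitutive Hspa8 and the chaperones of the endoplasmic reticulum Hspa5 and Hsp90b1 had no probe free of outlier flags and were at 0.728-fold, 1.29-fold and 1.15-fold on Cy5. The list's median log2 ratio was 0.06 on Cy5 and 0.48 on Cy3, the dye whose sham array stood apart.

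Promoters of these genes were searched for the heat shock element, written as 3 units that alternate between GAA and TTC with NN between units, and for the cyclic AMP response element TGACGTCA, in the 250 bases before and 50 after the annotated start (RefSeq sequences, GRCm38.p6). The patterns cover both strands, and none of them contains another. The heat shock element was present in 4 of the 21 kept heat shock genes with a promoter sequence (19.0%) and in 0.576% of all kept genes with one. Among the 4, Hspd1 and Hspe1 hold the element in the same bases, read on opposite strands, so that stretch is counted for both genes. Of the 4 heat shock genes above the threshold it was found in Hsph1 only, just after the start at chr5:149636280-149636308 on the minus strand. Elements with a changed letter in a unit, or outside the searched bases, were not looked for. A gene without a match may therefore still carry one. Hspd1, which was not past the threshold, carries it before the start at chr1:55088056-55088084, also on the minus strand. Capitals mark the element in both windows, which are shown because one gene passed the threshold and the other did not.
Hsph1: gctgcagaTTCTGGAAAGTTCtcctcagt
Hspd1: gcggggccTTCCGGAAGGTTCtagaacgg

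The cyclic AMP response element is bound by the CREB family, which also drives several immediate early genes. It was found in 11 of the 231 genes above the threshold that had a promoter sequence (4.76%), in 12 of 346 below it (3.47%) and in 3.16% of all kept genes with one. Windows are shown for genes described here, with the element in capitals: Arl4d at chr11:101665504-101665533 (plus strand), Maff at chr15:79347480-79347509 (plus), Ppp1r15a at chr7:45526262-45526291 (minus) and Btg2 at chr1:134079303-134079332 (minus).
Arl4d: gccgcgtcgtgTGACGTCAcgagagggttt
Maff: ggctggggcggTGACGTCActgcatgactg
Ppp1r15a: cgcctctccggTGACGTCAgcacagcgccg
Btg2: gttcccaataaTGACGTCAgtgagcgatga

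The 7-letter AP-1 site TGANTCA was in 9.09% of the genes above the threshold, 8.67% of those below and 6.86% of all kept genes with a promoter. A match of letters does not show binding.

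Chemokines, which attract leukocytes, were higher in the occluded pool at 5 of 21 kept members on each dye, and none was below 0.75-fold. Ccl4 read 95.1 and 1211 on Cy5 and 74.3 and 424 on Cy3 (12.7-fold and 5.72-fold). Ccl2, the main attractant of monocytes, read 126 and 869 on Cy5 and 88.7 and 323 on Cy3 (6.90-fold and 3.64-fold), and Ccl3 read 96.6 and 655 on Cy5 and 108 and 274 on Cy3 (6.78-fold and 2.54-fold). For each of the 3 genes both PMCAO channels lay above both sham channels, which adds no support, since they too were picked for their ratios. Ccl9 was at 2.35-fold and 2.00-fold, and the neutrophil attractant Cxcl1 at 2.66-fold and 1.57-fold. Ccl7, Ccl24 and Cxcl10 passed the threshold on Cy5 alone, at 2.24-fold, 2.21-fold and 2.28-fold. Chemokines of resting brain did not pass the threshold: Cxcl12 was at 0.782-fold and 1.12-fold and Cx3cl1 at 1.40-fold and 0.845-fold.

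Interleukins and other cytokines had 0 of 19 kept members past the threshold on both dyes, a count that ranged from 0 to 4 above and from 0 to 1 below over the alternative settings. On Cy5 alone 4 were above and 1 below, against 4.86% and 8.26% of all genes, and on Cy3 alone 0 and 2. The inflammatory cytokine Il6 read 64.6 and 97.1 on Cy5 (1.5-fold) and 72.7 and 78.5 on Cy3 (1.08-fold), and it was well above background on only 1 of the 2 sham arrays. Il1b was at 1.92-fold on Cy5 and 0.823-fold on Cy3, Il11 at 1.68-fold and 1.15-fold, and Il22 at 1.89-fold and 1.22-fold. All of these signals were below 200 and close to the offset, and without the offset the mean ratios of Il6, Il22, Il11 and Il1b were 2.08, 2.52, 1.73 and 1.49. At 24 h the log2 ratios of Il6, Il1b and Il11 were 1.35, 1.09 and 2.31. For the receptor side, 3 of 26 members of the cytokine receptor and signalling list were above the threshold: the feedback inhibitor Socs3 (4.00-fold and 3.29-fold), the TWEAK receptor Tnfrsf12a (2.68-fold and 4.36-fold) and Il4ra (1.54-fold and 2.92-fold). The receptor subunit Il1rap was at 1.22-fold and 0.678-fold. The neutrophil chemokine receptor Cxcr2 was not well above background in sham, where it read 65.9 on Cy5 and 68.4 on Cy3, and read 82.8 and 72.2 in PMCAO.

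Of the genes of NF-kB feedback, Nfkbiz, an atypical inhibitor induced by this factor, was the only one of 16 above the threshold on each dye, at 2.36-fold and 1.86-fold. Nfkbia had only Cy5 values free of flags, 3013 and 4803 (1.59-fold). Interferon-stimulated genes had 0 of 24 members past the threshold on both dyes, with Rsad2 nearest at 1.83-fold and 1.43-fold. On Cy5 alone 3 were above and 0 below, against 4.86% and 8.26% of all genes, and on Cy3 alone 0 and 4. Complement genes had 0 of 14 above and 1 below, C2 at 0.577-fold and 0.684-fold (0.767 by the mean in a second probe).

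Among neutrophil markers, 4 of 14 kept members were above the threshold on each dye and 0 below. S100a9 and S100a8, which form calprotectin, the main cytosolic protein of neutrophils, were the brightest. S100a9 read 842 and 5919 on Cy5 and 445 and 2477 on Cy3 (7.03-fold and 5.57-fold), and S100a8 145 and 704 on Cy5 and 110 and 308 on Cy3 (4.85-fold and 2.79-fold). Retnlg was at 3.95-fold and 1.63-fold and Lcn2, which astrocytes also make, at 1.98-fold and 1.56-fold. The summed signal of the 14 markers was 2319 in sham and 8532 in PMCAO on Cy5 and 1532 and 3960 on Cy3. S100a9 alone made up 842 and 5919 of these sums on Cy5 and 445 and 2477 on Cy3. Of the genes of neutrophil granules, Mpo was at 0.968-fold and 1.08-fold and Mmp9 at 0.996-fold and 1.02-fold, and Ngp, Camp, Ltf and Elane were not well above background. Whether blood in the vessels took part was not tested; the 3 kept erythrocyte markers summed to 483.4 in sham and 513.5 in PMCAO on Cy5.

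Microglia and macrophage markers showed no common direction. Of 28 kept members 3 were above (Cd14, Tlr2 and Lyz1) and 1 below the threshold on each dye, and the median log2 ratio was 0.12. Tlr2, a receptor for microbial lipids, was at 1.93-fold and 1.60-fold and Lyz1 at 1.71-fold and 1.54-fold. P2ry13, a receptor of resting microglia, was lower, at 250 and 167 on Cy5 and 143 and 99.6 on Cy3 (0.667-fold and 0.699-fold). The pan-microglial genes Aif1 and Cx3cr1 were at mean ratios of 1.03 and 1.01. Of astrocyte and reactive gliosis genes, Lcn2 was 1 of 24 above the threshold, while Gfap was at 1.02-fold and 0.787-fold. Sox9 was below it (0.664-fold and 0.182-fold), but its other probes gave 1.02 to 1.22 by the mean. On Cy5 alone 7 of the 24 were above and 1 below, against 4.86% and 8.26% of all genes. On Cy3 alone 3 were above and 5 below, against 17.2% and 21.0%. At 24 h, 12 of the 24 were above on each dye, with a median log2 ratio of 0.83.

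Genes of extracellular proteolysis were prominent among the lists, with 6 of 17 kept members above the threshold on each dye and 0 below. Timp1, an inhibitor of metalloproteinases, read 1024 and 3029 on Cy5 and 145 and 1054 on Cy3. Plaur, the urokinase receptor, read 205 and 545 on Cy5 and 108 and 217 on Cy3 (2.66-fold and 2.02-fold). Adamts1 and Adamts9, proteases that cut matrix proteoglycans, were at mean ratios of 2.45 and 2.25 (1.45 in a second Adamts1 probe), and the tissue plasminogen activator Plat at 1.70. The gelatinase Mmp2 and the membrane protease Mmp14 were near 1, at mean ratios of 0.989 and 0.960.

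Glucocorticoid-responsive genes had 5 of 13 above the threshold on each dye and 0 below. These were the cell cycle inhibitor Cdkn1a (2.20-fold and 3.46-fold), Angptl4 (2.14-fold and 3.25-fold), Arrdc2 (2.00-fold and 2.61-fold), Pdk4 (2.91-fold and 1.78-fold) and Lcn2. Most of these 5 answer to other stresses as well. Of the other kept members, the metallothionein genes Mt1 and Mt2 were at 1.25-fold and 4.53-fold and at 1.22-fold and 0.950-fold, Sult1a1 at 0.711-fold and 1.80-fold, and the phosphatase gene Dusp1 at 1.42-fold and 0.689-fold. Tsc22d3 was at 0.900-fold and 0.945-fold, Sgk1 at 1.07-fold and 0.876-fold, Fkbp5 at 0.532-fold and 0.972-fold, and Plin4 at 0.550-fold and 0.906-fold. Errfi1, Nfkbia and Ddit4, flagged on Cy3, were at 2.17-fold, 1.59-fold and 1.55-fold on Cy5. The median log2 ratio of the list was 0.18. At 24 h, 10 of the 13 were above the threshold.

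Growth factors of neurons were higher at 4 of 22 kept members. Besides Inhba and Nptx2 these were Bdnf, which supports neuronal survival and is transcribed on activity, with 1032 and 2716 on Cy5 and 389 and 1150 on Cy3 (2.63-fold and 2.95-fold), and Pdgfa at 1.70-fold and 1.79-fold. Dimmer probes of Bdnf and Pdgfa gave 1.75-fold and 1.35-fold by the mean. The survival factors Igf1 and Ntf3 were at mean ratios of 1.03 and 1.01. At 24 h the log2 ratios of Inhba and Bdnf were 0.06 and -0.24. In the cyclic AMP list, Akap12, a scaffold of protein kinase A, was the only one of 22 above the threshold, with 3088 and 9245 on Cy5 and 1241 and 3571 on Cy3 (2.99-fold and 2.88-fold).

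**Figure D4:**
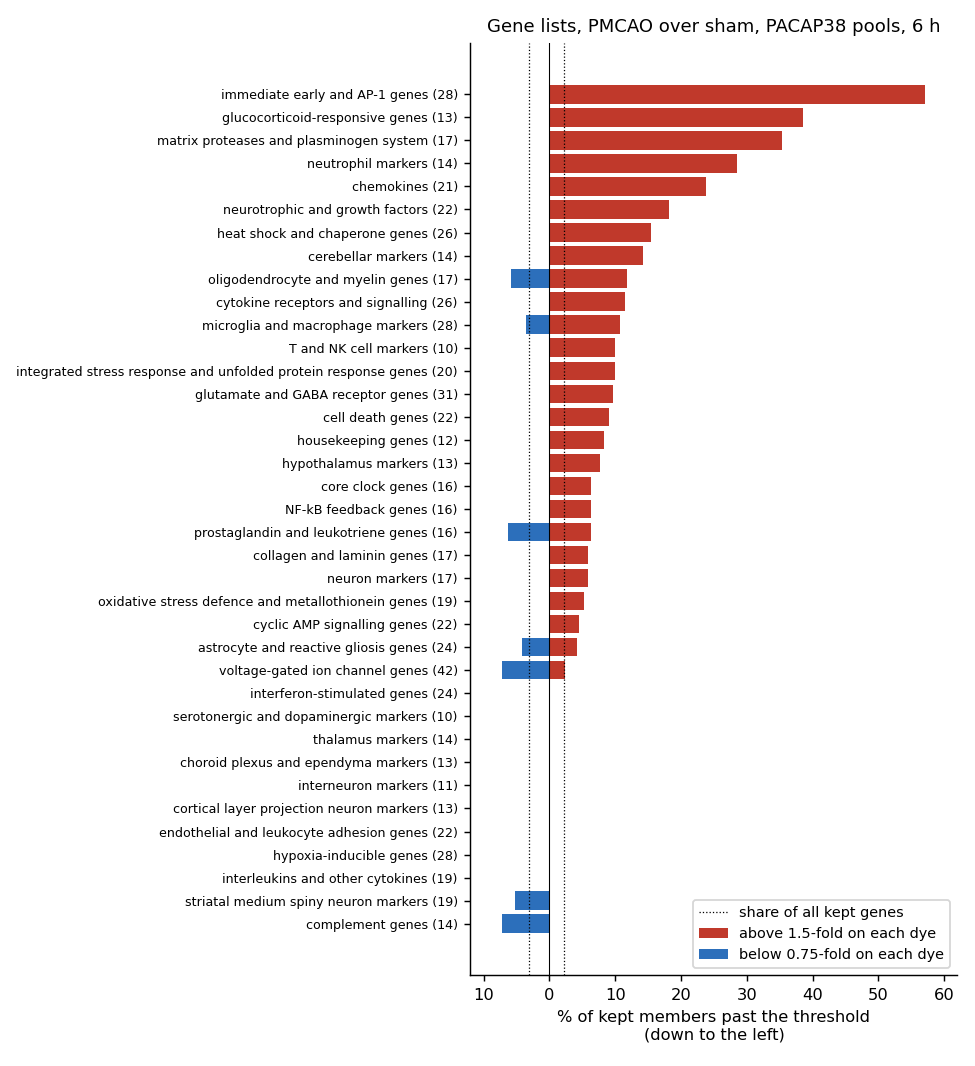
Share of the kept members of each gene list (at least 10 kept members, number in brackets) that were above 1.5-fold (red, to the right) or below 0.75-fold (blue, to the left) on each dye, with dotted lines at the shares of all kept genes, 2.15% and 3.14%. The immediate early list stands farthest out, with 16 of 28 members above.

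Other stress genes gave fewer calls. Of the integrated stress response and unfolded protein response, 2 of 20 members were above the threshold, the phosphatase subunit Ppp1r15a (2.27-fold and 1.57-fold) and the kinase-like Trib3 (2.02-fold and 1.53-fold, with 1.19 by the mean in a second probe). Fgf21, a hormone induced by this response, was at 1.12-fold and 0.871-fold, and at 24 h at a log2 ratio of 1.28. Hmox1, which breaks down heme, was 1 of 19 oxidative stress genes above the threshold, at 1.74-fold and 2.67-fold. Prdx6 was at 15.9-fold on Cy5 and 1.21-fold on Cy3. Of the prostaglandin genes, the inducible cyclooxygenase Ptgs2 was above (4.43-fold and 1.71-fold, and 2.96 by the mean in a second probe) and Hpgd, which degrades prostaglandins, below (0.585-fold and 0.674-fold). Of 22 cell death genes, Cdkn1a and Bcl2a1b were above, the latter at 2.09-fold and 1.59-fold. No endothelial adhesion gene of 22 passed the threshold on both dyes. On Cy5 alone 5 were above and 2 below, against 4.86% and 8.26% of all genes. On Cy3 alone 2 were above and 4 below, against 17.2% and 21.0%.

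Hypoxia-inducible genes, most of which are targets of the factor HIF-1, had 0 of 28 members past the threshold on both dyes. On Cy5 alone 1 was above, Adm, the gene of the vasodilator adrenomedullin, at 1.91-fold (1.44-fold on Cy3). On Cy3 alone 9 were above and 5 below, against 17.2% and 21.0% of all genes, among them Eno1 (1.06-fold on Cy5 and 4.26-fold on Cy3), Vegfa (1.15-fold and 2.97-fold) and Slc2a1 (1.14-fold and 0.303-fold). The large values thus came from the dye whose sham array stood apart. Ndrg1, flagged on Cy3, was 1.85-fold on Cy5.

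Genes of striatal medium spiny neurons differed between the dyes. With Cy5 alone, 10 of 19 were below 0.75-fold and 1 above, against 8.26% and 4.86% of all genes, and the median log2 ratio was -0.45, where that of all genes was -0.065. On Cy3, 4 were below and 3 above, with a median of -0.002. The adenosine receptor Adora2a was at 0.602-fold and 1.09-fold, the dopamine receptor Drd2 at 0.629-fold and 0.842-fold, and the adenylate cyclase Adcy5 at 0.548-fold and 0.794-fold. Only Ido1 passed on both, with 360 and 233 on Cy5 and 170 and 117 on Cy3 (0.647-fold and 0.690-fold). The markers of the cortical layers had 0 of 13 kept members past the threshold on both dyes and a Cy5 median of 0.04. The array held 22 of these markers, and several bright ones were lost to outlier flags on Cy3. On Cy5 those were at 0.601-fold (Neurod6), 0.646-fold (Lamp5), 0.784-fold (Tle4), 0.904-fold (Crym) and 0.908-fold (Etv1). Tbr1, Mef2c and Nr4a2 were at 1.11-fold, 1.41-fold and 1.56-fold. In the pools of 24 h, the striatal list had a median log2 ratio of -0.25, with 1 of 18 below the threshold on each dye. In the saline pools of 6 h, on the other channels of the same arrays, its median was 0.095, also with 1 of 18 below.

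**Figure D5:**
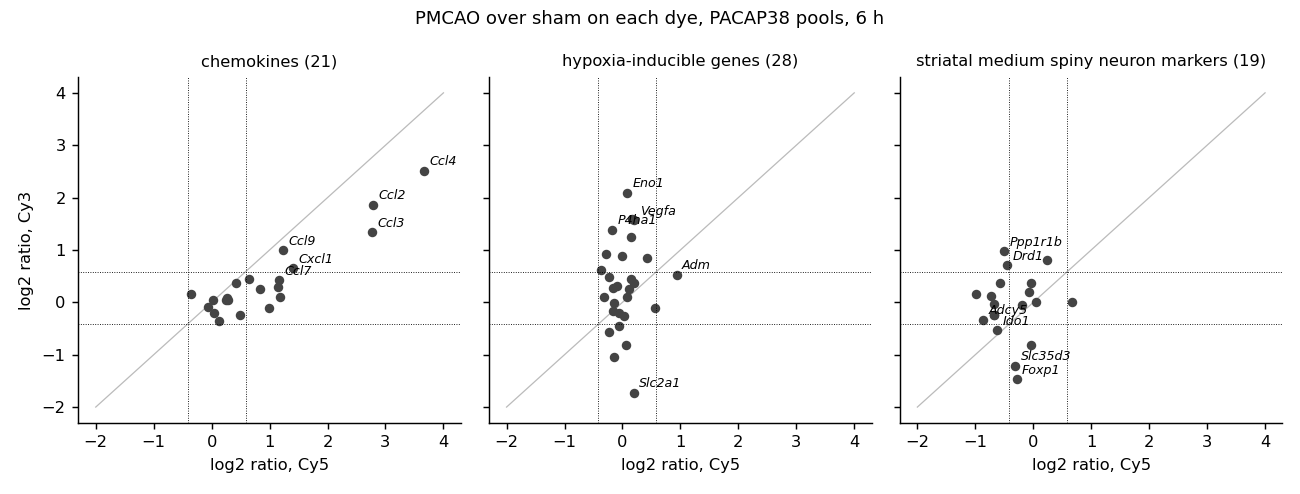
Log2 ratios of PMCAO to sham on Cy5 (x axis) and on Cy3 (y axis) for the kept members of 3 lists, with dotted lines at 1.5-fold and 0.75-fold and a grey line of equal ratios. Chemokines reach up to Ccl4 at 12.7-fold and 5.72-fold, hypoxia-inducible genes spread more along Cy3 than along Cy5, and striatal genes lie to the left, with 10 of 19 below 0.75-fold on Cy5.

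Other neuronal lists had few members past the threshold. Neuron markers had 1 of 17 above the threshold, the neurofilament gene Nefh at 3.20-fold and 2.44-fold, which was well above background on 1 of the 2 sham arrays. Of the receptors of glutamate and GABA, 3 of 31 were above, among them Gabbr2 (1.53-fold and 1.93-fold, but 1.09 to 1.27 in its other probes) and Gabra6. Of 42 members of the list named for voltage-gated ion channels, not all of which are such channels, Cacng3 was above (1.95-fold and 1.78-fold). In the same list, 3 genes of potassium channels or their subunits were below: Kcnk2 (0.607-fold and 0.473-fold), Kcnab1 (0.746-fold and 0.533-fold, but 0.93 by the mean in a second probe) and Kcnip2 (0.677-fold and 0.738-fold). Of the myelin list, Opalin (2.32-fold and 1.78-fold) and Aspa (1.55-fold and 2.01-fold) were above and Pdgfra, a marker of oligodendrocyte precursors, below (0.647-fold and 0.364-fold). Second probes of Opalin, Aspa and Pdgfra gave 1.05, 1.55 and 0.963 by the mean, none of them past the threshold on each dye. The neuropeptide gene Nts, at 2.25-fold and 1.85-fold, and the clock factor Nfil3, at 2.79-fold and 2.21-fold, were the only members above among 13 hypothalamus markers and 16 core clock genes. The markers of interneurons, choroid plexus and ependyma, olfactory bulb, thalamus, pituitary and serotonergic and dopaminergic neurons had 0 members past the threshold on each dye. Of 17 collagen and laminin genes Col4a2, a basement membrane collagen, was above (1.56-fold and 1.64-fold, but 1.15 by the mean in a second probe).

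Gabra6, a GABA receptor subunit largely restricted to cerebellar granule cells, read 72.3 and 247 on Cy5 and 74.2 and 130 on Cy3 (3.42-fold and 1.75-fold). It was well above background on 1 of the 2 sham arrays. Of the other cerebellar markers only Pcp2 was above, at 1.70-fold and 2.79-fold, and the median of the 14 was 0.09 on Cy5 and -0.07 on Cy3, although the cerebellum had been removed. Crtam, a membrane protein of activated T and NK cells, read 68.7 and 224 on Cy5 and 73.5 and 121 on Cy3 (3.26-fold and 1.65-fold). It was the only one of 10 kept T and NK cell markers above the threshold, out of 22 on the array. Klrb1c, a gene of NK cells flagged on Cy3, was at 1.80-fold on Cy5 (4722 and 8501). The other markers not kept did not pass the filter on background. In the saline pools, measured on the other channels of the same arrays, Gabra6 did not pass the filter on background, and the log2 ratios of Crtam were 0.12 on Cy3 and 0.34 by the mean. In the PACAP38 pools of 24 h, Gabra6 did not pass that filter either, and Crtam was at a log2 ratio of 0.06.

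The genes of PACAP and its relatives did not pass the threshold on both dyes. Adcyap1, the gene of PACAP itself, read 1219 and 1177 on Cy5 (0.966-fold) and 206 and 374 on Cy3 (1.81-fold), and its receptor Adcyap1r1 2931 and 2690 on Cy5 (0.918-fold) and 437 and 1029 on Cy3 (2.35-fold). A second Adcyap1r1 probe was at 1.02-fold by the mean. The receptor Vipr1 was at 1.00-fold and 1.11-fold, and the related peptides Ghrh and Sct at 1.05-fold and 1.41-fold, and 1.15-fold and 1.03-fold. Ghrhr, the receptor of the former, was at 0.848-fold and 1.06-fold. Vip, flagged on Cy3, was at 0.689-fold on Cy5 (1007 and 693), and Vipr2 and Sctr were not well above background on any of the 4 channels.

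In the CRMP family, cytosolic proteins that link semaphorin signals to the microtubules of growing axons, no member was past the threshold on both dyes. Dpysl2, which encodes CRMP2, read 379 and 465 on Cy5 (1.23-fold) and 97.1 and 152 on Cy3 (1.56-fold), and Dpysl5 was at 0.921-fold and 1.04-fold. Crmp1, Dpysl3 and Dpysl4 carried outlier flags on Cy3 and were at 0.943-fold, 1.15-fold and 0.888-fold on Cy5. S100a5, a gene of olfactory sensory neurons, was at 0.827-fold and 1.24-fold, and at 24 h at a log2 ratio of -1.40. The mean ratios of Nf1, Pitpnc1, Epha3 and Actb were 1.15, 0.875, 0.829 and 0.914, and C030005H24Rik was not kept.

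The 20 lowest genes by the mean, led by Tril, a Toll-like receptor accessory protein of glia (0.721-fold on Cy5 and 0.105-fold on Cy3), had Cy5 ratios of 0.493 to 0.731, close to the threshold of 0.75, and Cy3 ratios of 0.105 to 0.39. All 20 were lower on Cy3 than on Cy5, and in 11 of the 15 with other kept probes none of those was below the threshold on each dye. Among the 20 highest, 12 were larger on Cy3, and in 4 of the 6 with other kept probes none of those was above the threshold on each dye. Among all 611 probes below the threshold, the lowest on Cy5 was A_52_P893105, which has no gene name here and was at log2 ratios of -2.255 on Cy5 and -1.59 on Cy3. By comparison, the 20 highest genes ranged from 2.01-fold to 22.5-fold on Cy5 and from 1.70-fold to 31.5-fold on Cy3. Among genes chosen after their values were seen, for being low to a like degree on each dye, were the Notch target Hes5 (0.471-fold and 0.480-fold), Klhl24 (0.492-fold and 0.489-fold) and the neurite protein Slitrk6 (0.512-fold and 0.520-fold).

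The pools of 24 h gave values from other mice. Of the 297 genes above the threshold on each dye at 6 h, 296 were kept at 24 h, and 50 of them (16.9%) were above it there on each dye, against 2.0% of the 12870 genes kept at both times. Of the 433 genes below, 432 were kept at 24 h and 17 (3.94%) were below there, against 2.04%. For Ccl2, Timp1, Hspa1a, S100a9 and Socs3 the log2 ratios at 24 h were 4.44, 2.55, 2.40, 2.37 and 2.13. In the saline pools of 6 h, where 2.23% of genes were above and 5.19% below on each dye, the same genes had mean log2 ratios of 2.04, 2.65, 4.42, 2.36 and 1.92. Saline and PACAP38 pools came from different mice, but those of an operation shared arrays and spots. The Cy3 ratio of PACAP38 correlated at r = 0.927 across probes with the Cy5 ratio of saline on the Pooled 2 arrays. On the Pooled 1 arrays the Cy5 ratio of PACAP38 correlated at r = 0.572 with the Cy3 ratio of saline. Both ratios also compare the same operations, and the part of the shared spots in these correlations was not tested. The saline values are therefore given beside the others and not as an independent repeat.

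The mean ratio over both times was tested with limma on the 4 PACAP38 pools, with the time as a block. No probe of 24766 (0%) had a Benjamini-Hochberg adjusted p-value under 0.05, 1183 had an unadjusted p under 0.05, and the smallest adjusted p was 0.554. The fit had 1 residual degree of freedom. On simulated data it called 0 of 50 probes changed by a log2 ratio of 3, and likewise 0 of 50 at a log2 ratio of 2 or of 1. The absence of calls therefore does not show that no probe changed. With Cy5 alone, a choice made after the array that stood apart was seen, 12 probes of 28961 (0.0414%) were called by limma, all higher in PMCAO, among them those of Ccl3, Atf3, S100a9, Ccl4, S100a8, Tubb6, Socs3, Hspb1, Maff and Retnlg. For Ccl3 the mean log2 ratio was 2.77 (95% interval 2.43 to 3.12, limma adjusted p = 0.00657), and for Ccl4 3.35 (2.90 to 3.81, adjusted p = 0.00668). Tubb6, a tubulin gene, was at 2.36 (1.96 to 2.75, limma adjusted p = 0.0137). These values average 6 h and 24 h and are not a test of 6 h alone.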

How the data were processed

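The authors scanned 2-colour Agilent mouse arrays and deposited the Feature Extraction output: mean spot intensity, background intensity and flags (version 9.5.1.1 in the file headers at 6 h, 9.5.3.1 per the labels). Flags are other values of the deposited files (well above background, outlier). Per the study's methods, 300 ng of RNA from each of 3 mice was pooled and labelled with each dye, so the 2 arrays of a group were counted as 1 replicate.

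Here the PACAP38 channels were background-corrected (normexp, offset 50), quantile-normalized within a dye, and probes kept if free of outlier flags and well above background in both dyes of at least 1 group (R 4.3.3, limma 3.58.1; Python 3.11.15). A gene was represented by its brightest kept probe. Symbols came from RefSeq accessions (22944 probes) or symbols and synonyms (9772), and 8458 probes had none. Saturation did not occur at 6 h.

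Members, lists and thresholds were chosen with earlier results of these data known. Named genes were those the study names, the 20 highest and 20 lowest past the threshold on each dye, the 4 largest such members of each list (or its largest member) and all members of the PACAP and CRMP families. The lists numbered 42. Scripts were tested on simulated data. Alternatives covered scaling, background, flags, filters, dyes and thresholds. The series matrix and 3 second copies of arrays, identical to the first, were not used. Some genes that the rule would name are not reported here.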

Additional observations from a re-analysis of the deposited data

Results flagged for a closer look

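For 8 genes the ratio of PMCAO to sham in the PACAP38 pools passed the threshold on each dye at 6 h and passed it the other way on each dye at 24 h. Of the 296 genes above at 6 h and kept at 24 h, 6 (2.03%) were below there, against 2.04% of all genes kept at both times. Of the 432 genes below at 6 h and kept at 24 h, 2 (0.463%) were above there, against 2.0%. Such reversals were thus no more frequent than the same calls over all genes. The difference between times was not tested, since each time had 1 pool per group on a slide of its own. The log2 ratio at 6 h minus that at 24 h was 2.47 for Fos (1.71 at 6 h and -0.75 at 24 h), 1.72 for the prohormone convertase Pcsk1 (1.15 and -0.58) and 1.40 for the matrix protease Adamts8 (0.86 and -0.54). Among genes of mature oligodendrocytes it was 1.94 for Opalin (1.02 and -0.91) and 1.29 for Aspa (0.82 and -0.47), and a second Opalin probe was near 0 at 6 h, at 1.05-fold. It was 1.11 for Mboat1 (0.62 and -0.49). In the other direction it was -1.70 for Ugt1a6b (-1.04 and 0.66) and -1.29 for the xanthine oxidase gene Xdh (-0.51 and 0.79).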

How the results depend on the processing

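Counts by the mean of the dyes (1630 up, 2719 down) became 3194 and 4900 without the normexp offset, 5349 and 6213 with the processed signal of the scanner software, and 476 and 611 when each dye had to pass; with 1 over 1.5 as the lower limit 1408 were down. Leaving out the Pooled 1 or the Pooled 2 arrays gave 1170 to 3306 up and 1720 to 4444 down. Counts on each dye (476 and 611) became 873 and 1524 without the offset, 1124 and 1967 with the processed signal, and 297 up as gene symbols. Scaling to the 75th percentile moved the median Cy3 ratio of all probes to 0.53 on the log2 scale (0.24 for the mean of the dyes), and the share of calls that were up went from 37.5% to 47.6%; on each dye it went from 43.8% to 54.7%, to 53.2% with loess and Aquantile (479 up and 422 down), and to 36.4% without the offset or with the processed signal. Of the 297 genes above on each dye 224 were so in all 6 other normalization settings, and of the 433 below 174. The 89 named genes past the threshold on each dye kept their direction by the mean in every setting. For either dye alone this was fixed by their choice, since both dyes had to pass. Of the 89, 84 stayed past the threshold with 75th-percentile scaling and 82 with all probes of a gene averaged. Gene lists with a median above 1.5-fold numbered 1, and 4 with 75th-percentile scaling or without the offset, 5 with the processed signal and 2 on either dye alone. List members above on each dye, summed over the lists so that a gene in several lists counts in each, numbered 73, and 113 with the processed signal. The limma fit called 0 probes, and 187 up and 37 down with 75th-percentile scaling, 29 up without the offset, 108 up and 11 down with the processed signal, 9 up with an intensity trend, and 0 to 12 up on a single dye. The cause of these changes was not tested. The count of 4 arrays limits precision, and dim genes are limited by background. No paired analysis was possible because the 2 numbered arrays of a group hold the same pooled RNA with the dyes exchanged, so each group is 1 replicate and no replicates remain to pair across groups.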
